A study of Mus musculus with 18 samples.

Results

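The genes studied here drive entry into and exit from mitosis, and their transcription was followed in nascent RNA of mouse embryonic stem (mES) cells with and without *Tet2*. They are the cyclin genes *Ccna2*, *Ccnb1* and *Ccnb2*, the kinase genes *Cdk1*, *Plk1*, *Aurka*, *Aurkb*, *Bub1* and *Ttk*, and *Cdc20*, and they were taken by name from the mouse gene annotation, as 10 of the 54446 genes in the deposited tables. All 10 had enough reads to be tested. New RNA was labelled with 1 mM 5-ethynyl uridine (EU), a nucleoside that cells build into RNA as it is made, for 10, 20 or 40 min, and the labelled RNA was biotinylated, captured on streptavidin beads and sequenced. WT and *Tet2*-KO cells (*Tet2* -/-) were each labelled for the 3 times with 3 replicates, which gave 6 groups and 18 libraries. Cells of every group grew in medium with 15% serum, LIF, 3 μM CHIR99021 and 1 μM PD0325901, were cleared of feeder cells by passage on gelatin, and were seeded into dishes at equal density 42 h before EU was given. The sources name a WT and a *Tet2*-KO culture and no separate knockout clones, so the p-values measure the spread between dishes.

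Cyclins A2, B1 and B2 bind and switch on the kinase CDK1, whose activity takes cells from G2 into mitosis. Polo-like kinase 1 and the Aurora kinases A and B act on centrosomes, spindle and chromosomes, BUB1 and TTK (also called MPS1) hold the spindle checkpoint at kinetochores, and CDC20 activates the anaphase-promoting complex, the ubiquitin ligase that marks cyclin B for destruction. Transcription of these genes normally peaks in G2 and mitosis through promoter elements called CHR and NF-Y boxes, and mES cells, which have a short G1 phase, are known for rapid division.

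Between 17931614 and 23069143 reads per library fell on genes and between 44162 and 512186 on the ERCC spike-in, a mix of synthetic RNAs. Each value is given on 2 scales. The level per 1000 ERCC reads follows the amount of captured RNA. Because this mix entered after capture, scaled to each sample's total RNA, the level is relative to total RNA, and the number of cells does not enter it. The read count per 1000000 gene reads (CPM) gives the share that a gene holds of all reads assigned to genes. *Tet2* itself held 589 to 741 CPM in WT and 530 to 643 in *Tet2*-KO libraries, lower in *Tet2*-KO at each time by 0.15 to 0.23 on the log2 scale as a share and higher by 0.54 per ERCC read on average. Reads over the whole gene cannot show whether a part of it is deleted, so genotypes are those of the labels. Of 10 mES cell markers 9 had reads, and *Sox2*, which lies within *Sox2ot* on the same strand, was listed at 0. The summed level of these markers was 3119 to 3304 CPM in WT and 2241 to 2371 in *Tet2*-KO, with 2 of 9 tested higher and 7 lower, while the sum of 10 feeder fibroblast markers was 1029 to 1113 and 852 to 980, nearly all of it *Fn1*, with *Lum* and *Dcn* at 1 and 24 reads in all libraries together. Primitive endoderm markers summed to 214 to 270 and 194 to 267 CPM, with 0 of 6 tested higher and 2 lower, and trophectoderm markers to 12.2 to 16.1 and 15.1 to 20.4, with 1 of 6 higher and 2 lower. Of all genes tested, 24.6% held a higher and 32% a lower share on the average of the 3 times. From highest to lowest log2 difference of share, these lists ran from 0.25 (*Utf1*) to -2.25 (*Zfp42*), 1.05 (*Col3a1*) to -1.57 (*Pdgfrb*), 0.46 (*Gata6*, not called) to -0.42 (*Gata4*) and 1.49 (*Gata3*) to -0.77 (*Krt7*), in the order given, and their part in the results was not tested. In bulk RNA, fewer cells in a phase of the cycle or of a type and less RNA per cell cannot be told apart.

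The members lie on different chromosomes apart from *Aurka* and *Bub1*, both on chromosome 2, and *Ccnb2* and *Ttk*, both on chromosome 9. On mm10, *Ccna2* spans chr3:36564865-36572150, *Ccnb1* chr13:100778650-100786570, *Ccnb2* chr9:70407692-70421547, *Cdk1* chr10:69335146-69352938 and *Plk1* chr7:122159439-122169873. *Aurka* spans chr2:172356190-172370535, *Aurkb* chr11:69045647-69051664, *Bub1* chr2:127801122-127831865, *Ttk* chr9:83834689-83872389 and *Cdc20* chr4:118432901-118437352. Only *Plk1*, *Aurkb* and *Ttk* are on the plus strand. Introns make up between 44.0% of the span in *Ccna2* and 89.0% in *Ccnb2*. The counts were found to cover introns: of 4343 genes that lie wholly in an intron of a protein-coding gene on the same strand, 4339 had no read, against 66.1% of all named genes with a read, since a read there falls on both genes and is not assigned. Genes wholly inside a gene of the opposite strand had reads in 73.7% of cases, so strands were kept apart. *Exosc9* and *Elovl1* overlap *Ccna2* and *Cdc20* on the opposite strand by 863 and 53 bases. *Exosc9* held 39971 reads in all libraries together, against 19039 on *Ccna2*, and *Elovl1* held 710, against 10183 on *Cdc20*. *Gm44985*, with 20 reads, overlaps *Plk1*. The pseudogenes *Ccnb1-ps* and *Ccnb2-ps* held 28 and 92 reads in all libraries together, against 41869 and 14518 on their parent genes. Reads that align equally well to a parent and its pseudogene count for neither, and how many there were was not tested.

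RefSeq promoters (GRCm38.p6, from 250 bases before to 50 bases from the start on) were found for 8 of the members, and *Ccna2* and *Aurkb* were not in the table. Both strands were searched for the CHR (TTTGAA or TTCGAA), the NF-Y box (CCAAT) and the E2F site (TTCCCGC or TTCGCGC), and no match of 1 kind overlapped a match of another in these windows. All 8 promoters held an NF-Y box, 7 of them at least 2, against 37.4% and 11.7% of the 32851 promoters in the table. A CHR was found in 7 of 8, against 19.2%, and both elements in 7 of 8, against 7.52%. Only *Cdk1* held an E2F site, against 6.00%. The promoter of *Ccnb1* was the one with no CHR in this window. Sequences are shown for the members whose share of gene reads differed most between genotypes (*Ccnb1*, *Ccnb2* and *Plk1*). They are also shown for *Cdk1* and *Cdc20*, in which a CHR and NF-Y boxes lie side by side upstream of the start. Each is 140 bases, 5′ to 3′ on the strand of the gene, with CHR and NF-Y boxes (CCAAT or its complement ATTGG) in capitals. They cover chr13:100786541-100786680 (minus strand) for *Ccnb1*, chr9:70421555-70421694 (minus) for *Ccnb2*, chr10:69352913-69353052 (minus) for *Cdk1*, chr7:122159295-122159434 (plus) for *Plk1* and chr4:118437344-118437483 (minus) for *Cdc20*.
Ccnb1: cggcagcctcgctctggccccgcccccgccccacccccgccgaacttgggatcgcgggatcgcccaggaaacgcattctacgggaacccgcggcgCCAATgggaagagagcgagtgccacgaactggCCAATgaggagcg
Ccnb2: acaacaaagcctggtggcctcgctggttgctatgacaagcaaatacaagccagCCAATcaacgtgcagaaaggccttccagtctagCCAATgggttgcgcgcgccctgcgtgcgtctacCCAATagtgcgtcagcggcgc
Cdk1: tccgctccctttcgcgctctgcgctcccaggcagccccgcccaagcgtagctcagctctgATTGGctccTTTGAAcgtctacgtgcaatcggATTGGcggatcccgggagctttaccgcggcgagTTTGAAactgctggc
Plk1: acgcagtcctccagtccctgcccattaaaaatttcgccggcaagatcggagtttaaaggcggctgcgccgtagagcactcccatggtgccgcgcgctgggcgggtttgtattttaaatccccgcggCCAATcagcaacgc
Cdc20: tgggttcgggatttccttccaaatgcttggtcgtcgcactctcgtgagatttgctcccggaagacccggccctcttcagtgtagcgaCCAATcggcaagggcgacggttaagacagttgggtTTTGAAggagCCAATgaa
In *Cdk1* the CHRs began 71 and 15 bases before the RefSeq start and NF-Y boxes 80 and 48 bases before it. In *Cdc20* a CHR, 18 bases before the start, stood between NF-Y boxes at 53 and 8 bases. The CHR of *Plk1*, 31 bases after the start, and those of *Ccnb2*, 167 bases before and 5 bases after it, lie outside the stretches shown. A match of letters is a description and not evidence of a bound factor.

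Per kilobase of gene span and as a share of gene reads, *Ccnb1* had the highest level of the 10 in all 6 groups. It stood at 19.4 ± 1.40 (SD, n = 3) CPM per kb in WT at 10 min, against 6.42 ± 0.178 for *Ccna2*, which was next in every group. In *Tet2*-KO at 10 min the same levels were 11.9 ± 0.298 and 7.05 ± 0.380, so the ranges of *Ccnb1* and *Ccna2* stayed apart. *Ttk*, the longest member, was lowest in every group, from 1.79 ± 0.0628 in *Tet2*-KO at 10 min to 2.60 ± 0.113 in WT at 40 min. Between them came *Cdk1* and *Cdc20*, then *Aurkb* and *Aurka*, whose ranges overlapped in all 6 groups, and then *Bub1*, *Ccnb2* and *Plk1*. *Ccnb2* stood above *Bub1* in WT at 10 and 20 min and below it in the other groups. Its range overlapped that of *Bub1* in *Tet2*-KO at 10 min only. Among other neighbours in the order, *Ccna2* overlapped *Cdk1* in WT at 10 min and *Cdc20* in WT at 40 min and in *Tet2*-KO at 20 and 40 min. *Cdc20* and *Cdk1* overlapped in WT at 20 min and in *Tet2*-KO at 10 and 20 min. *Aurka* overlapped *Ccnb2* in WT at 10 and 20 min. *Ccnb2* overlapped *Plk1* in WT at 40 min and in *Tet2*-KO at 20 min, and *Ttk* in *Tet2*-KO at 40 min. *Plk1* overlapped *Ttk* at all 3 times in WT. Divided by exon length in place of span, *Ccnb1* was highest in WT and ranked 2, 4 and 5 in *Tet2*-KO at 10, 20 and 40 min. By exon length *Ttk* ranked 6 and *Aurkb* 10, the lowest place, in every group. *Ccna2* ranked 8 in WT at each time and 7, 9 and 9 in *Tet2*-KO at 10, 20 and 40 min.

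Per ERCC read, nascent RNA of all 10 members was higher in *Tet2*-KO than in WT, and so was that of most genes. TMM normalization uses gene reads and no ERCC reads and centres on the bulk of the genes, so it takes out a shift shared by most genes. It is the same fit for both scales and does not test the level per ERCC read. Under TMM, averaged over the 3 times, *Ccnb1* and *Ccnb2* were lower, and *Cdk1* (log2 difference -0.027) was not called. Averaged over the 3 times, *Plk1* rose most per ERCC read, 1.94-fold, and *Ccnb1* least, 1.11-fold. *Ccnb1* gave 6.67, 7.75 and 7.08 reads per 1000 ERCC reads in the WT libraries at 10 min, 18.6, 19.4 and 20.5 at 20 min and 30.1, 30.1 and 29.8 at 40 min. In *Tet2*-KO it gave 9.27, 8.35 and 9.28 at 10 min, 18.4, 19.6 and 19.8 at 20 min and 35.1, 31.9 and 33.6 at 40 min. The genotypes did not overlap at 10 and 40 min and overlapped at 20 min. *Plk1*, the kinase that drives centrosome maturation and mitotic entry, gave 0.979, 1.11 and 0.810 reads per 1000 ERCC reads in WT at 10 min and 2.27, 2.13 and 2.47 in *Tet2*-KO. At 40 min it gave 6.79, 6.85 and 7.25 in WT and 13.7, 10.8 and 11.7 in *Tet2*-KO. Every *Tet2*-KO library stood above every WT library of its time for 9 of the 10 members at all 3 times, *Ccnb1* being the exception, as did 51.6% of all genes tested. Time by time it held for 10, 9 and 10 members, against 75.6%, 57.2% and 71.7% of all genes. No member lay wholly below WT at any time, against 2.11%, 6.42% and 3.53% of all genes at the single times and 1.56% at all 3.

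In the quasi-likelihood test of edgeR, with p-values adjusted over 19910 genes after Benjamini and Hochberg, 10 of 10 members were higher in *Tet2*-KO at 10 min, where 79% of all genes tested were called higher. At 20 min it was 9 of 10, against 53.7% of all genes, and at 40 min 9 of 10, against 68.2%, and none was lower, where 2.1%, 4.86% and 2.84% of all genes were. On the average of the 3 times 10 of 10 were higher, against 80.5% of all genes, and none lower, against 4.15%. TMM, which takes out the shift of most genes, gave 2 higher (*Plk1* and *Bub1*) and 2 lower (*Ccnb1* and *Ccnb2*). Per ERCC read, the median log2 fold change was 0.72 over the members and 0.70 over all genes tested. The members' counts stood above the shares of all genes, while these medians lay close together. For *Ccnb1* the log2 fold change was 0.32 ± 0.09 (SE) after 10 min of EU (adjusted p = 0.000644), -0.01 ± 0.09 after 20 min (0.901) and 0.16 ± 0.09 after 40 min (0.108, but 0.0453 by DESeq2 with ERCC size factors, which made 10 of 10 higher at that time). Its average was 0.16 ± 0.05 (0.00425), and -0.54 under TMM. On average *Ccnb2* rose by 0.51 ± 0.06 (-0.19 under TMM), *Cdk1* by 0.67 ± 0.05 (-0.027 under TMM), *Ccna2* by 0.75 ± 0.06 and *Plk1* by 0.96 ± 0.07, and the other 5 members by 0.70 to 0.79. For *Ccnb2* at 20 min (0.28 ± 0.11, adjusted p = 0.0178) the call was lost without WT replicate 1, WT replicate 3 or *Tet2*-KO replicate 2 of that time (highest adjusted p 0.0750).

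**Figure D1:**
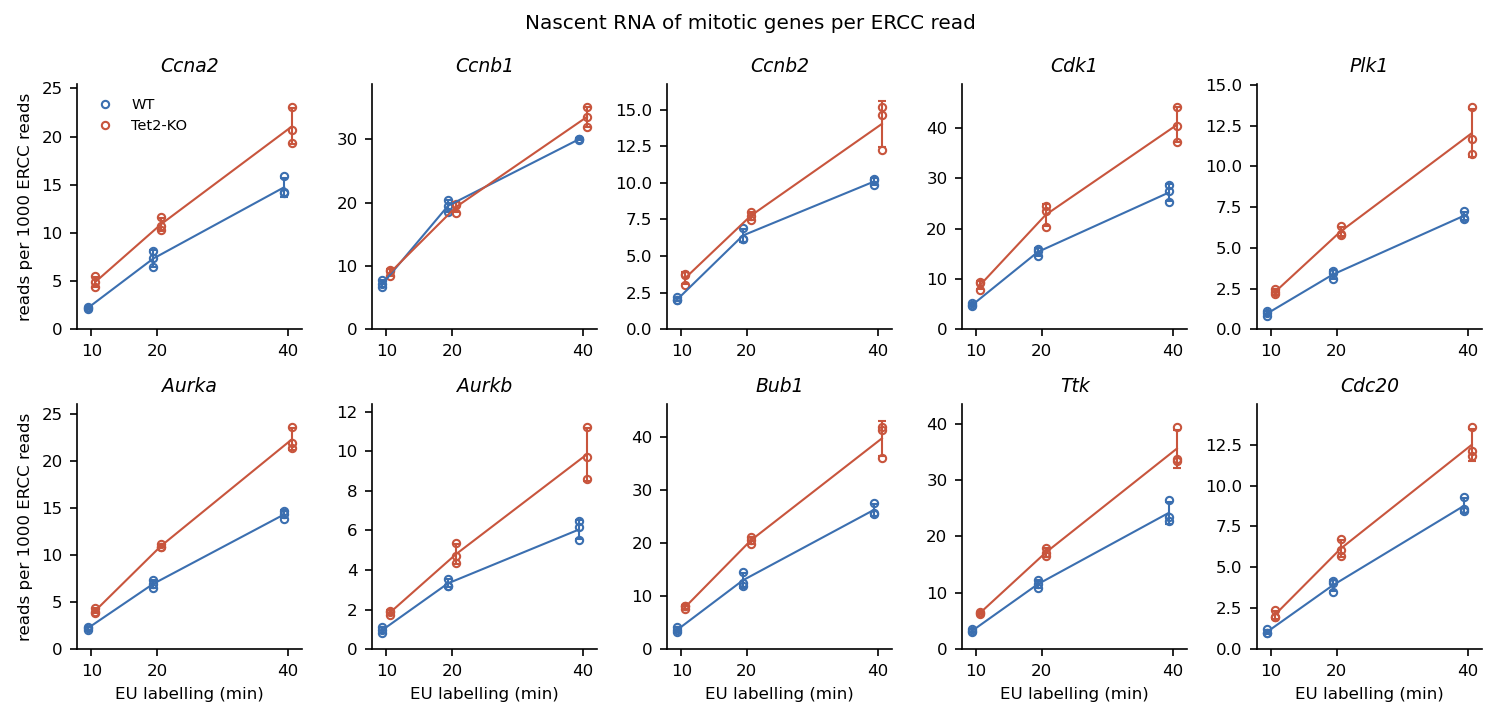
Reads per 1000 ERCC reads (y axis, linear from 0) of the 10 members against EU labelling time in min (x axis), with an open circle for each library, lines through the means and bars of 1 SD (n = 3), WT in blue and *Tet2*-KO in red. The red points lie above the blue ones at every time except for *Ccnb1* at 20 min, where WT (18.6 to 20.5) and *Tet2*-KO (18.4 to 19.8) overlap. With TMM, which uses no ERCC reads, the average difference of *Ccnb1*, *Ccnb2* and *Cdk1* is below 0, that of *Cdk1* not called.

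As a share of gene reads the members went different ways: over the 3 times *Ccnb1*, *Ccnb2* and *Cdk1* averaged lower in *Tet2*-KO and *Plk1* and *Bub1* higher, with *Cdk1* no longer called under TMM (-0.027). *Ccnb1* held 143, 152 and 166 CPM in the WT libraries at 10 min, 129, 124 and 146 at 20 min and 124, 116 and 125 at 40 min. In *Tet2*-KO it held 96.6, 93.2 and 92.1 at 10 min, 96.1, 91.1 and 93.9 at 20 min and 81.9, 87.2 and 84.7 at 40 min. The highest *Tet2*-KO library was below the lowest WT library at every time. The log2 difference was -0.71 ± 0.05 (SE), -0.50 ± 0.05 and -0.52 ± 0.05 at the 3 times. It averaged -0.58 ± 0.03 (adjusted p = 4.44e-18), a share 1.49-fold lower. *Ccnb2*, the other B-type cyclin, held 46.8, 38.9 and 45.9 CPM in WT at 10 min and 38.4, 33.6 and 37.6 in *Tet2*-KO. At 40 min it held 42.3, 38.0 and 42.5 in WT and 35.4, 33.4 and 37.0 in *Tet2*-KO. The genotypes did not overlap at any of the 3 times, though at 10 min the lowest WT library (38.9) stood just above the highest *Tet2*-KO one (38.4), and the average difference was -0.23 ± 0.04 (adjusted p = 1.0e-05).

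*Plk1* was the member whose share rose most. It held 21.04, 21.9 and 18.9 CPM in WT at 10 min and 23.7, 23.8 and 24.5 in *Tet2*-KO, 24.6, 21.9 and 21.9 against 30.2, 29.5 and 27.8 at 20 min, and 27.9, 26.5 and 30.3 against 31.8, 29.4 and 29.4 at 40 min. The genotypes were apart at 10 and 20 min and overlapped at 40 min. Its average difference was 0.22 ± 0.04 (adjusted p = 5.18e-05), with 0.35 ± 0.08 at 20 min (0.000315) and 0.10 ± 0.07 at 40 min (0.326). At 10 min it was 0.22 ± 0.08 (0.0217), a call lost without replicate 3 of either genotype at that time (highest adjusted p 0.116). *Cdk1*, the kinase that the cyclins switch on, differed by -0.07 ± 0.03 on average (adjusted p = 0.0357) and *Bub1* by 0.06 ± 0.03 (0.0425). The first call was lost in 9 and the other in 12 of the 18 fits that leave out 1 library, with adjusted p up to 0.109 and 0.124. *Ccna2* (0.02 ± 0.03), *Aurka* (-0.0048 ± 0.04), *Aurkb* (-0.01 ± 0.05), *Ttk* (-0.03 ± 0.03) and *Cdc20* (-0.01 ± 0.04) did not pass the test, and the signs of the last 4 turned under TMM. The 95% interval of the difference ran from -0.09 to 0.08 for *Aurka* and from -0.11 to 0.09 for *Aurkb*. *Aurka* and *Aurkb* overlapped between genotypes at all 3 times.

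**Figure D2:**
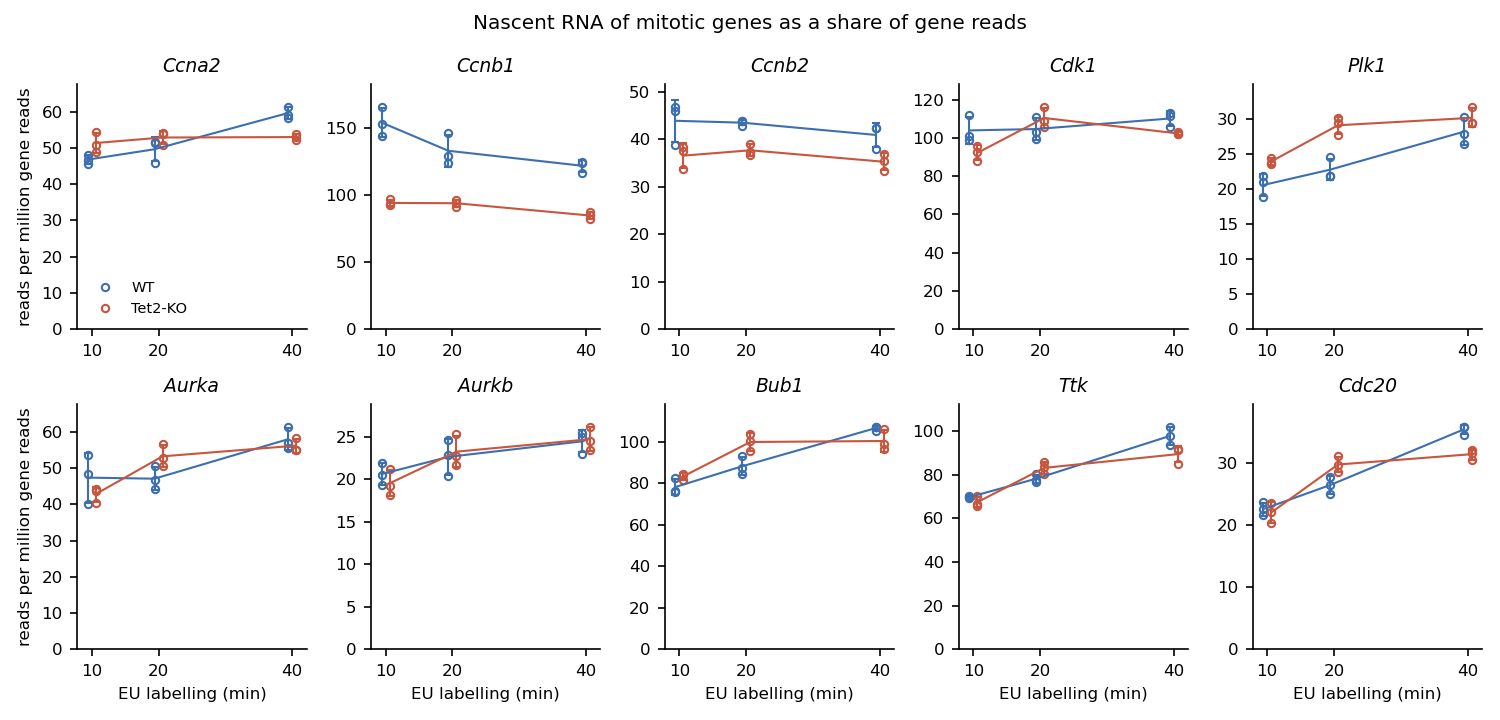
CPM, the share of gene reads (y axis, linear from 0) of the 10 members against EU labelling time in min (x axis), with an open circle for each library, lines through the means and bars of 1 SD (n = 3), WT in blue and *Tet2*-KO in red. *Ccnb1* and *Ccnb2* lie lower in red at all 3 times, and *Ccna2* crosses from higher in red at 10 min to lower at 40 min.

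In counts, 2 of 10 members held a higher share (*Ccna2* and *Plk1*) and 3 a lower one (*Ccnb1*, *Ccnb2* and *Cdk1*) in *Tet2*-KO at 10 min, where 17.9% of all genes were higher and 27.1% lower, and TMM gave 3 and 2. At 20 min it was 2 higher (*Plk1* and *Bub1*) and 2 lower (*Ccnb1* and *Ccnb2*), against 17.6% and 20.7%, and TMM gave 6 and 2. At 40 min none was higher and 5 were lower (*Ccna2*, *Ccnb1*, *Ccnb2*, *Ttk* and *Cdc20*), against 18.9% and 19.6%, and TMM gave 0 and 4. On the average of the 3 times 2 were higher and 3 lower, against 24.6% and 32%. The median over the members was -0.01 and over all genes tested -0.04. By position of single libraries, 2 members had all *Tet2*-KO values above all WT values and 3 had them below at 10 min, as did 18.5% and 27.1% of all genes tested. At 20 min it was 4 above and 2 below, against 22.8% and 26.8%, and at 40 min 0 above and 6 below, against 25.7% and 26.8%. At all 3 times 2 members (*Ccnb1* and *Ccnb2*) lay below and none above, against 13.9% and 11.8%. At 40 min the differences that made up these calls were small apart from *Ccnb1*, at -0.22 ± 0.07 for *Ccnb2* (adjusted p = 0.0134), -0.17 ± 0.05 for *Ccna2* (0.0121), -0.17 ± 0.07 for *Cdc20* (0.0482) and -0.13 ± 0.04 for *Ttk* (0.0186). *Cdc20*, the least firm, lost its call in 11 of the 18 fits without 1 library (adjusted p up to 0.151), and *Ccna2* lost it without WT replicate 2 of 40 min (0.0603). *Ttk* lost it without WT replicate 2 or *Tet2*-KO replicate 3 of 40 min (up to 0.137). *Ccnb2* lost it at 40 min without WT replicate 1 or 3 or *Tet2*-KO replicate 2 of that time (up to 0.0855), and at 20 min without *Tet2*-KO replicate 2 or 3 (up to 0.0662).

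**Figure D3:**
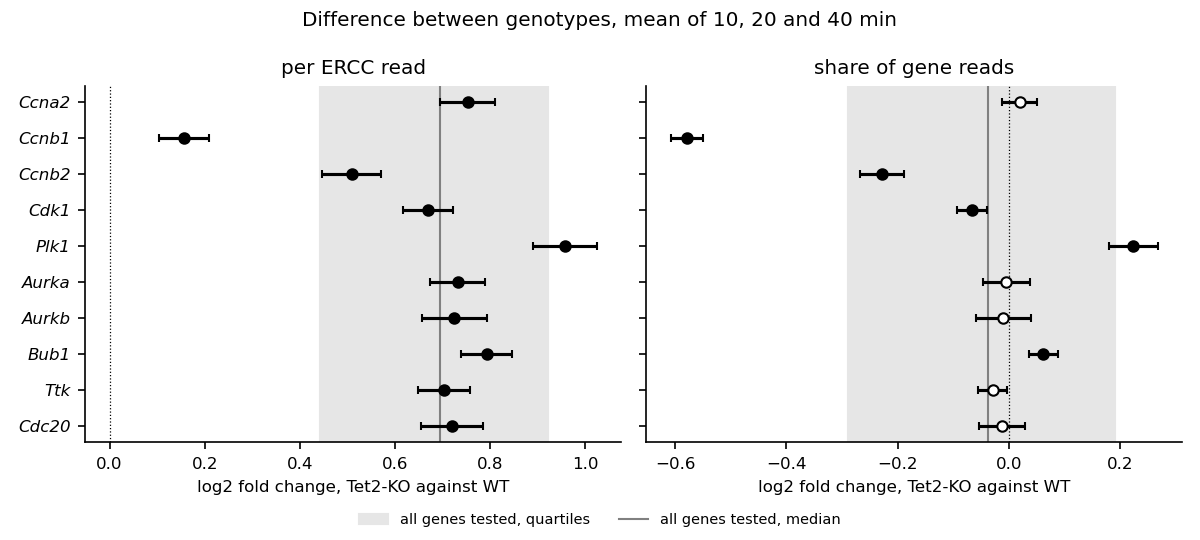
Log2 fold change of *Tet2*-KO against WT averaged over 10, 20 and 40 min (x axis) for each member (rows), with bars of 1 SE, per ERCC read on the left and as a share of gene reads on the right. Filled points passed an adjusted p of 0.05, the grey band spans the quartiles and the grey line the median of the 19910 genes tested (0.70 on the left, -0.04 on the right), and *Ccnb1* is left of the band in both panels.

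Within the reads of the 10 members, *Ccnb1* took 25.3 ± 1.03% (SD, n = 3), 21.6 ± 1.84% and 17.8 ± 0.582% in WT at the 3 times. It took 17.6 ± 0.420%, 15.3 ± 0.155% and 13.9 ± 0.421% in *Tet2*-KO. The genotypes did not overlap at any time. Without *Ccnb1*, the summed share of the other 9 was 454 ± 10.5 CPM in WT and 439 ± 3.45 in *Tet2*-KO at 10 min, 483 ± 15.3 and 519 ± 7.89 at 20 min, and 561 ± 3.13 and 523 ± 2.03 at 40 min.

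The lower share of *Ccnb1* was shared by genes around it on chromosome 13. Of the 20 tested protein-coding genes nearest to it, 10 on each side over 3.77 Mb, 18 were lower in *Tet2*-KO and 1 higher, with a median log2 fold change of -0.52. The next genes on each side, *Cenph* (a kinetochore protein, 2751 bases away) and *Slc30a5* (a zinc transporter, 16078 bases away), differed by -0.57 ± 0.03 and -0.66 ± 0.02, against -0.58 for *Ccnb1*, and 8 of the 20 neighbours fell further than *Ccnb1*. Along the chromosome, 33 of 41 tested protein-coding genes between 100 and 110 Mb were lower and 4 higher (median -0.49), and 31 of 44 between 110 and 120 Mb were lower and 6 higher (median -0.74). Between 90 and 100 Mb the median was -0.17, and in the 9 bins of 10 Mb before that it lay between -0.15 and 0.20. The 20 nearest genes of the other members had medians of -0.17 around *Ccnb2* (12 lower and 4 higher), -0.10 around *Cdc20*, -0.06 around *Cdk1* and between -0.05 and 0.06 around the other 6. Around *Plk1* the median was 0.01, and 15 of the 20 neighbours had a lower value than the 0.22 of *Plk1*. Whether the chromosome 13 stretch has a part in the value of *Ccnb1* was not tested.

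**Figure D4:**
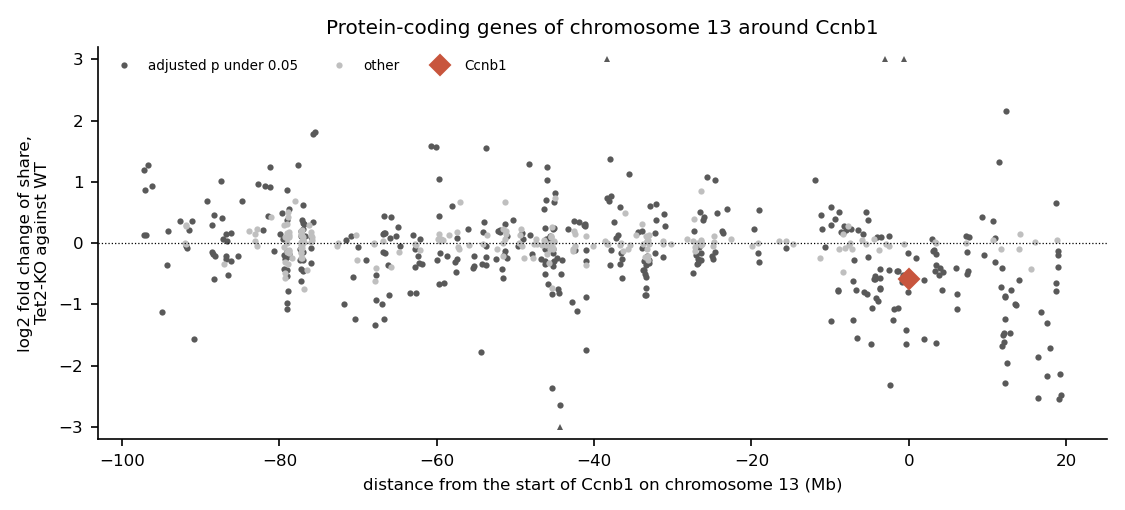
Log2 fold change of the share of gene reads, *Tet2*-KO against WT averaged over 3 times (y axis), of 601 tested protein-coding genes of chromosome 13 by distance from the start of *Ccnb1* in Mb (x axis), dark where the adjusted p is under 0.05, with *Ccnb1* as a red diamond and 4 genes beyond an absolute value of 3 drawn as triangles at the edge. From about the position of *Ccnb1* to the right-hand end most points lie below 0, with bin medians of -0.49 and -0.74, while points further left scatter around 0.

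With longer labelling 7 of the 10 members took a larger share of gene reads in each genotype, and *Ccnb1* a smaller one. Per ERCC read all 10 were higher at 40 than at 10 min in WT (against 96.7% of all genes) and in *Tet2*-KO (against 94.7%), and none lower (against 0.01% and 0.00502%). As a share of gene reads 7 members were higher and 1 lower at 40 min in WT, where 16.1% of all genes were higher and 29.5% lower. In *Tet2*-KO 7 were again higher and 1 lower, where 16.5% were higher and 20% lower, and the lower call was lost under TMM. The median change of share was 0.32 over the members and -0.14 over all genes in WT, and 0.30 and -0.06 in *Tet2*-KO. *Cdc20* rose most in both, by 0.65 ± 0.07 (SE, log2, adjusted p = 2.77e-09) in WT and 0.52 ± 0.07 (6.29e-07) in *Tet2*-KO. Its CPM went from 21.6, 23.7 and 22.5 at 10 min to 34.6, 35.9 and 35.8 at 40 min in WT, and from 20.3, 22.2 and 23.7 to 31.7, 32.2 and 30.5 in *Tet2*-KO, with no overlap between times. *Ttk* rose by 0.49 ± 0.04 and 0.41 ± 0.04, *Bub1* by 0.45 ± 0.04 and 0.27 ± 0.05, and *Plk1* by 0.45 ± 0.08 and 0.33 ± 0.08. *Aurka* rose by 0.29 ± 0.07 and 0.40 ± 0.07 and *Aurkb* by 0.25 ± 0.09 and 0.34 ± 0.09, the WT value of *Aurkb* losing its call without WT replicate 3 of 10 min or WT replicate 1 or 2 of 40 min (adjusted p up to 0.0732). *Ccnb1*, alone among the 10, differed by -0.34 ± 0.05 in WT (adjusted p = 6.71e-07) and -0.15 ± 0.05 in *Tet2*-KO (0.0211, lost without *Tet2*-KO replicate 1 of 10 min or of 40 min, adjusted p up to 0.0983). *Ccnb2* did not pass the test in either genotype, at -0.10 ± 0.07 and -0.06 ± 0.07. *Cdk1* passed in *Tet2*-KO (0.15 ± 0.05, lost without its replicate 2 of 10 min, adjusted p = 0.0800) and not in WT (0.08 ± 0.05). *Ccna2* passed in WT (0.35 ± 0.05) and not in *Tet2*-KO (0.05 ± 0.06).

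**Figure D5:**
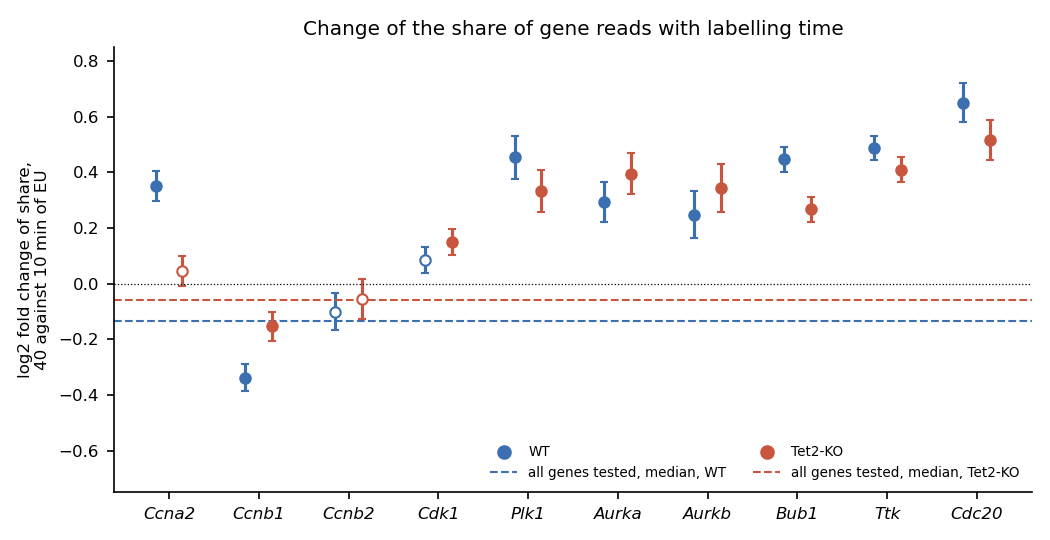
Log2 fold change of the share of gene reads at 40 against 10 min of EU (y axis) for each member (x axis), with bars of 1 SE, WT in blue and *Tet2*-KO in red. Filled points passed an adjusted p of 0.05 and dashed lines give the median of all genes tested in each genotype (-0.14 and -0.06), and all members but *Ccnb1* and *Ccnb2* lie above 0 in both.

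The gap between genotypes narrowed with labelling time for some members. Per ERCC read, the change of the *Tet2*-KO to WT difference from 10 to 40 min was below 0 in all 10, and passed the test in 5, where it was called below 0 in 19.3% of all genes and above 0 in 0.552%. They were *Ccna2* (-0.66 ± 0.14, adjusted p = 0.000403), *Bub1* (-0.52 ± 0.13, 0.00242), *Cdc20* (-0.48 ± 0.16, 0.0206), *Plk1* (-0.46 ± 0.16, 0.0307) and *Ttk* (-0.42 ± 0.13, 0.0147), and under TMM 2 passed. The median was -0.36 over the members and -0.29 over all genes. As a share of gene reads only *Ccna2* passed (-0.30 ± 0.08, adjusted p = 0.00916), where 3.36% of all genes were lower and 5.89% higher. *Ccna2*, the cyclin that acts in S phase and at the start of mitosis, held 46.7, 45.5 and 48.1 CPM in WT at 10 min, 51.4, 51.7 and 45.8 at 20 min and 58.4, 61.4 and 59.2 at 40 min. In *Tet2*-KO it held 50.7, 49.0 and 54.4 at 10 min, 53.8, 54.1 and 50.8 at 20 min and 53.8, 53.0 and 52.3 at 40 min. All *Tet2*-KO libraries were above WT at 10 min (0.13 ± 0.05, adjusted p = 0.0447, lost in 10 of the 18 fits without 1 library, up to 0.229) and all were below WT at 40 min. Without each library in turn, the calls of *Ccna2* and *Bub1* for the narrowing per ERCC read and of *Ccna2* for the share were kept, and those of *Cdc20*, *Plk1* and *Ttk* were lost in 6, 7 and 4 of 18 fits. WT replicate 3 of 10 min, WT replicate 2 of 40 min and *Tet2*-KO replicates 2 and 3 of 40 min each ended the call in all 3. WT replicate 1 and *Tet2*-KO replicate 3 of 10 min did so in *Cdc20*, and WT replicate 3 of 40 min and *Tet2*-KO replicates 1 and 3 of 10 min in *Plk1*, whose call was also lost without a filter on low counts (adjusted p = 0.0529).

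As a rate, the slope of the level on EU time over 9 libraries per genotype, *Ccnb1* gained 0.728 ± 0.0679 (SE) reads per 1000 ERCC reads per min in WT and 0.804 ± 0.0400 in *Tet2*-KO, and *Cdk1* 0.724 ± 0.0514 and 1.04 ± 0.0761. Rates per kilobase are given for gene span only, and the order of levels changed when exon length was used. By span, *Ccnb1* had the highest rate in both genotypes, at 0.0919 ± 0.00857 in WT and 0.102 ± 0.00505 in *Tet2*-KO. *Cdc20* and *Ccna2* came next in both, at 0.0572 ± 0.00210 and 0.0565 ± 0.00316 in WT, less than 1 SE apart. The lowest rates per kb in WT were those of *Ttk* (0.0183 ± 0.000926), *Ccnb2* (0.0185 ± 0.00178) and *Plk1* (0.0189 ± 0.000745), whose differences were smaller than their SE. In *Tet2*-KO *Ccnb2* (0.0249 ± 0.00187) and *Ttk* (0.0256 ± 0.00137) were lowest, and *Plk1* stood at 0.0308 ± 0.00217. The ratio of *Tet2*-KO to WT was lowest in *Ccnb1*, at 1.10, and highest in *Plk1* and *Aurkb*, at 1.63 and 1.61. *Aurka* stood at 1.51, *Cdk1* at 1.43, *Bub1* at 1.41, *Ttk* at 1.40, *Ccnb2* at 1.35, *Cdc20* at 1.34 and *Ccna2* at 1.30. Over 15075 protein-coding genes the median ratio was 1.54, with quartiles of 1.29 and 1.86. Of these genes 14.6% had a lower ratio than *Ccnb1* and 59.7% a lower ratio than *Plk1*, and the members other than *Ccnb1* lay between the quartiles. From 10 and 20 min alone the ratios of *Ccnb1* and *Ccnb2* were 0.838 and 0.975. Slopes were not tested between genotypes.

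Other genes of mitosis were followed through 8 lists with 94 genes outside the members, all of them tested. Per ERCC read 91 were higher and 1 lower in *Tet2*-KO on the average of 3 times, where 80.5% and 4.15% of all genes were, with a median of 0.73. As a share 30 were higher and 29 lower, where 24.6% and 32% of all genes were, with a median of -0.0049 against -0.04 over all genes. At 40 against 10 min their share rose in 58 and fell in 7 in WT (median 0.21), where 16.1% and 29.5% of all genes did. It rose in 56 and fell in 8 in *Tet2*-KO (median 0.17), where 16.5% and 20% of all genes did. The 1 gene lower on both scales was *Pttg1*, securin, the inhibitor of the protease that separates sister chromatids. It held 37.5 to 45.1 CPM in WT and 7.76 to 12.2 in *Tet2*-KO, with no overlap, and differed by -2.06 ± 0.05 as a share and -1.32 ± 0.07 per ERCC read on the log2 scale.

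Among 18 genes of the anaphase-promoting complex, the ligase that CDC20 activates, the share of 8 rose and of 3 fell, from *Anapc10* (0.56 ± 0.02) to *Anapc7* (-0.28 ± 0.03). Among 9 spindle checkpoint genes, partners of *Bub1* and *Ttk*, 3 rose and 3 fell, from *Bub3* (0.09 ± 0.03) to *Mad2l1bp* (-0.56 ± 0.11). Of 13 kinetochore and centromere genes 1 rose (*Knl1*, 0.07 ± 0.02) and 7 fell, *Dsn1* most (-0.32 ± 0.05). Of 6 Aurora kinase partners 3 rose, *Haspin* most (0.37 ± 0.04), and 2 fell, *Birc5* (survivin) most (-0.10 ± 0.04). Of 12 regulators of CDK1 4 rose, led by the inhibitory kinase *Wee1* (0.18 ± 0.02), and 5 fell, led by the activating phosphatase *Cdc25b* (-0.61 ± 0.09). Of 9 transcription factors of the G2/M programme 3 rose, *Mybl2* most (0.29 ± 0.01), and 2 fell, *Foxm1* most (-0.40 ± 0.04). Of 16 mitotic motors and spindle proteins 6 rose, *Nusap1* most (0.22 ± 0.03), and 2 fell, *Aspm* most (-0.30 ± 0.02). Of 11 condensin and sister chromatid genes 2 rose, *Ncaph* most (0.07 ± 0.03), and 5 fell. All 16 motor and spindle genes rose as a share from 10 to 40 min in WT and 14 in *Tet2*-KO, while of the 9 checkpoint genes 2 rose and 1 fell in each.

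Genes of earlier cell cycle phases gave a similar mix. Of 8 G1 and S cyclins and kinases 2 held a higher share in *Tet2*-KO, *Cdk4* most (0.16 ± 0.04), and 4 a lower one, *Ccnd2* most (-0.77 ± 0.20). Of 11 tested genes of replication licensing 5 were higher, *Mcm7* most (0.20 ± 0.02), and 4 lower, *Mcm2* most (-0.35 ± 0.02). Of 6 tested paralogs of the members 0 were higher and 4 lower. *Ccna1*, the germline A-type cyclin with 177 reads in all libraries, differed by -1.26 ± 0.34, and *Aurkc* by 0.42 ± 0.18 (adjusted p = 0.0531). Against 10 min, 3 licensing genes rose and 2 fell at 40 min in each genotype, with medians of 0.02 in WT and 0.04 in *Tet2*-KO, next to 0.32 and 0.30 for the members.

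Across the 18 libraries, the log2 shares of *Ttk* and *Cdc20* followed each other most closely among the members (Pearson's r = 0.968), and *Ccnb1* and *Plk1* least (-0.733). *Ccnb1* and *Ccnb2* went together (0.833) and hardly followed the mean of the members, with r of -0.06 and 0.05, whereas *Cdc20* and *Ttk* reached 0.945 and 0.941. Each member is itself part of that mean, which raises its r. Outside the members, the protein-coding genes most like the members' mean were *Edem3* (0.964), *Tubb4b* (0.958), *Abcf2* (0.955), *Mdm4* (0.952) and *Polr1a* (0.951). Those most like *Ccnb1*, looked up after its values were seen, were *Lsm3*, *Dimt1*, *mt-Cytb*, *Pygb* and *Rps7*, with r from 0.976 to 0.983, and of these *Dimt1* lies on chromosome 13. The libraries share genotype, labelling time and depth, so these coefficients describe the pattern over the 6 groups.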

How the data were processed

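Nascent RNA libraries of WT and *Tet2*-KO mES cells were analysed from counts that the authors deposited without normalization. Per the labels, the submitters' processing notes and the study's methods, Trimmomatic 0.39, HISAT2 2.2.1, HTSeq 0.12.4, mm10 and GENCODE annotation were used, and libraries were made with a stranded kit after rRNA depletion. The feature type that HTSeq counted is not given in the sources used here. HTSeq summary rows (20.9 to 24.9% of reads) were left out. Names came from GENCODE M21 for 54409 of 54446 genes. The members and lists were chosen with earlier results of these data known.

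Genes passing filterByExpr (minimum count 10, 19910 genes) were fitted in edgeR 4.0.16 (R 4.3.3) by quasi-likelihood with 1 mean per genotype and time, no block, and totals of ERCC reads or of gene reads as library sizes. Calls used Benjamini-Hochberg adjusted p under 0.05, and the SE is the log2 fold change over the square root of F. Rates are least squares slopes with an intercept on levels per ERCC read, where the study took the slope of a linear fit to attomoles. Because counts covered introns, levels per kb use gene span, and exon length, the planned main length, became an alternative chosen after seeing the data. Alternatives were TMM on gene reads only, 18 ERCC transcripts with at least 100 reads, protein-coding totals, DESeq2 1.42.0, other filters, each time alone, a replicate block and each library left out. Besides the members, the text names the genes of highest and lowest share difference in each list, those most like the members' mean, overlapping genes, pseudogenes and *Tet2*, with single markers and neighbours of *Ccnb1* chosen after their values were seen. The procedure was tested on simulated data. Every replicate pair differed beyond counting noise (mean chi-square per gene 1.66 to 5.53), and replicate numbers did not pair libraries.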

Additional observations from a re-analysis of the deposited data

Results flagged for a closer look

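The difference between genotypes itself differed between 10 and 40 min of EU for 5 members per ERCC read, by the interaction term of edgeR's quasi-likelihood fit (Benjamini-Hochberg adjusted), where 19.3% of all genes were called in the same direction. The log2 change from 10 to 40 min was -0.66 in *Ccna2* (adjusted p = 0.000403), -0.52 in *Bub1* (0.00242), -0.48 in *Cdc20* (0.0206), -0.46 in *Plk1* (0.0307) and -0.42 in *Ttk* (0.0147), next to a median of -0.29 over all genes tested. Under TMM 2 members passed, and the calls of *Cdc20*, *Plk1* and *Ttk* were lost in 6, 7 and 4 of the 18 fits that leave out 1 library. As a share of gene reads the same test passed for *Ccna2* alone (-0.30, adjusted p = 0.00916). Groups of 3 libraries were not searched for outlying samples.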

How the results depend on the processing

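Counts are of the 10 members. TMM used gene reads and no ERCC reads, so it was the same fit for both scales and does not test the level per ERCC read. It takes out a shift shared by most genes. Beside the counts per ERCC read it gave 3 higher and 2 lower in *Tet2*-KO at 10 min, 2 lower at 20 min, and 0 higher and 4 lower at 40 min. It gave 2 higher and 2 lower on average, 1 lower at 40 against 10 min in WT, and 2 in place of 5 lower for the change from 10 to 40 min. Its average over the 3 times (log2) was -0.54 for *Ccnb1*, -0.19 for *Ccnb2* and -0.027 for *Cdk1*, all above 0 per ERCC read. As a share it turned *Aurka* to 0.035, *Aurkb* to 0.030, *Ttk* to 0.011 and *Cdc20* to 0.027. For shares, higher calls at 10 min were 1 with protein-coding totals, 1 without a filter, 1 with the replicate block and 0 with that time's 6 libraries alone, in place of 2. At 20 min they were 6 with TMM and 5 with DESeq2 in place of 2. On average 1 was higher with protein-coding totals in place of 2. In *Tet2*-KO, 0 were lower at 40 against 10 min with TMM or DESeq2 in place of 1. For the change from 10 to 40 min, 1 was higher without a filter in place of 0, and 2 lower with TMM or DESeq2 in place of 1. By exon length 11 of 60 places in the order of levels were held. From 10 and 20 min only, the rate ratios of *Ccnb1* and *Ccnb2* were 0.838 and 0.975. The causes were not tested.

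With each library left out in turn, the change from 10 to 40 min per ERCC read had 2 to 7 lower calls. Shares had 0 to 2 higher at 10 min, 2 to 4 higher and 1 to 2 lower at 20 min, 2 to 6 lower at 40 min, 1 to 2 higher on average, 1 to 2 lower at 40 against 10 min in WT and 0 to 1 in *Tet2*-KO, and 0 to 1 higher and 1 to 2 lower for the change from 10 to 40 min. Average shares ran from -0.041 to 0.028 for *Aurka*, -0.032 to 0.012 for *Aurkb* and -0.031 to 0.0075 for *Cdc20*.

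The replicate numbers did not pair the libraries: over 45 pairs of same-numbered libraries from different groups, deviations correlated from -0.0661 to 0.0490 (median -0.00469). With the number as a block, counts for shares were 3 higher at 20 min and 4 lower at 40 min. Under settings other than leaving out a library, 163 values of a count or median ratio held and 22 moved. For single members' averages and rate ratios 56 held, 9 moved, 6 lost their call and 9 reversed, with averages tallied under TMM and the replicate block only. Outside that tally, the average share of *Cdk1* lost its call in the DESeq2 Wald test (adjusted p = 0.361). That of *Bub1* lost it in the edgeR test with protein-coding totals (0.0863). Without 1 library, 481 counts and median ratios held and 41 moved. Of the single members' values 503 held, 1 moved, 21 lost their call and 15 reversed. Replicate libraries differed by more than counting error on average over the genes, and each group has 3 dishes. How much of the members' spread is counting error was not tested.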
